A study of Mus musculus with 13 samples.

Results

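Interleukins and their receptors were compared in liver endothelial cells of mice with and without a microbiota. The genes described here are all rows of the deposited count table whose symbol starts with Il followed by a digit, leaving out Il18 and Il34, which gave 81 of the 24421 genes in the table. They comprise 35 ligands, 38 receptor chains, 6 inhibitors (receptor antagonists, decoy receptors and binding proteins), the enzyme gene Il4i1 and the non-coding gene Il1bos. The 13 libraries were made from cells labelled as liver endothelial cells of wild-type mice, 7 from conventionally raised animals (CONV-R, libraries 1 to 7) and 6 from germ-free animals (GF, libraries 8 to 13), which are raised without live microbes. No treatment, age or sex is given in the labels, and they do not say whether each library is 1 animal or how the cells were isolated, so the tests speak of variation among these libraries, which may be technical. Library totals ranged from 7590320 to 35478115 counts.

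Interleukins are secreted proteins through which leukocytes and tissue cells signal to each other. Members of the IL-1 family act through paired receptors of the immunoglobulin superfamily and the adaptor MyD88, and are held in check by a receptor antagonist and by decoy receptors. Most other interleukins act through receptor chains that lack enzyme activity and recruit JAK kinases, which activate STAT transcription factors; chains such as gp130 (Il6st), the common gamma chain (Il2rg) and the IL-10 receptor beta chain (Il10rb) are shared by several cytokines. The IL-17 receptors form a family of their own. In the liver, sinusoidal endothelial cells and Kupffer cells meet blood that drains from the gut, and endothelial cells respond to IL-1, IL-6 family cytokines, IL-4 and IL-13.

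Genes of the IL-1 family on chromosome 2 carried several of the differences described below, so the bases before the start of 3 of them are shown, from RefSeq, build GRCm38.p6, 5′ to 3′ on the strand of the gene and outside the annotated gene. These bases are chr2:129371165-129371389 (minus strand) for Il1b, chr2:24336610-24336859 (plus strand) for Il1rn and chr2:24186226-24186475 (plus strand) for Il1f9. Capitals mark matches, on either strand, to any of the motifs searched, and genes and motifs were picked after expression values had been seen.
Il1b: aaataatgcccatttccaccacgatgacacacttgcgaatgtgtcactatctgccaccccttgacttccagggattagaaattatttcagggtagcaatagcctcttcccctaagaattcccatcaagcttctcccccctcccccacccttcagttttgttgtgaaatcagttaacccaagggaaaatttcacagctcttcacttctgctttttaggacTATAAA
Il1rn: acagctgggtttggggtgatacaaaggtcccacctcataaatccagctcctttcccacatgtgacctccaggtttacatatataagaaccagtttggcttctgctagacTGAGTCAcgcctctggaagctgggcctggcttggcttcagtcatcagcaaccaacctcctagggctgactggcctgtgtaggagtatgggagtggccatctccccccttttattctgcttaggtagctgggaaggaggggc
Il1f9: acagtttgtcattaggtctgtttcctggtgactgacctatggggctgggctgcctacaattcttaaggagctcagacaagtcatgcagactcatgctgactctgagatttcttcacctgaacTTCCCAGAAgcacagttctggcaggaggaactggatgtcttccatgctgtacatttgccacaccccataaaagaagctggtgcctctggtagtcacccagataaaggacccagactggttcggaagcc
The motifs were the first 9 bases of a kappa B motif (GGGNNTTTC), an AP-1 motif (TGANTCA), a GAS motif of STAT factors (TTCNNNGAA) and a TATA box (TATAAA), none of which overlapped another in these windows. Il1b held a TATA box 31 bases before the transcript start of the RefSeq promoter table. Il1rn held the AP-1 motif TGAGTCA at 141 bases and Il1f9 the GAS motif TTCCCAGAA at 128 bases before that start. Among the 250-base windows before 32851 RefSeq starts, 3.72% held the kappa B bases, 6.75% the AP-1 motif, 7.02% the GAS motif and 12.4% the TATA box. Of the 65 interleukin and receptor genes matched to a window, 5, 12, 7 and 11 held them, in the same order. For these genes only the window before the most upstream start was searched, while the percentages cover every start. The counts and percentages are therefore not like for like and were not compared by a test. A match is a description of these letters and no binding was measured.

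Several libraries stood apart in markers of other cell types, given here as sums of CPM (read counts scaled to a common library size with TMM) over fixed marker lists. All 15 endothelial markers were detected in both groups, and their sums were 19973 to 36374 CPM in CONV-R, lowest in CONV-R 1, and 37482 to 41457 CPM in GF. In the edgeR test given below, 7 of the 15 were higher in GF and 0 lower, where 11.4% of all tested genes were higher and 12.7% lower. CONV-R 1 held 1832 CPM of 13 B and plasma cell markers, against 102 to 127 CPM in the other CONV-R libraries and 64.8 to 80.6 CPM in GF. Its sum of 10 T cell markers was 332 CPM, against 24.8 to 37.6 CPM in the other CONV-R libraries and 24.0 to 62.6 CPM in GF, highest in GF 8. Neutrophil and monocyte markers (13 in the table, with Fcnb at 0 in all libraries) summed to 305 to 434 CPM in CONV-R 1 to 4, to 839, 1522 and 2318 CPM in CONV-R 5, 6 and 7, and to 138 to 260 CPM in GF. Sums of 14 hepatocyte markers were 1069 to 6462 CPM in CONV-R and 643 to 997 CPM in GF, and those of 12 Kupffer cell markers 2558 to 8108 and 2610 to 4205 CPM. Sums of 7 cholangiocyte markers were 48.4 to 259 CPM in CONV-R and 155 to 382 CPM in GF. Those of 10 stellate cell and fibroblast markers were 31.7 to 134 CPM in CONV-R, 628 CPM in GF 11 and 50.4 to 95.3 CPM in the other GF libraries. In bulk libraries such as these, fewer cells of a type and less RNA per cell cannot be told apart. A code number in the library names reads 10 in CONV-R 1 to 4, 9 in CONV-R 5 to 7 and 6 throughout GF; its meaning is not stated, and it cannot be told apart from the group.

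Of the 81 genes, 45 were abundant enough to be tested with edgeR's quasi-likelihood test. At an adjusted p under 0.05, 14 were lower in GF and 1, Il17rd, was higher, while 30 did not pass. This is 33.3% of the tested genes, where 24.1% of all 13915 tested genes passed, 12.7% lower and 11.4% higher. Scaled by library totals rather than TMM, 15 were lower and 1 higher, beside 2768 lower and 970 higher among all genes, against 1764 lower and 1593 higher with TMM. The median log2 fold change (GF over CONV-R) of the 45 was -0.42, against -0.01 over all tested genes, and -0.14 when CONV-R 1 was left out. In that fit, 12.6% of all tested genes were lower and 10.1% higher, and 13 of the 15 genes stayed past the threshold; Il27 and Il10ra did not. All 6 GF libraries lay below every CONV-R library for 6 of the 45 genes (Il1rn, Il1rap, Il1bos, Il5ra, Il9r and Il10rb), where 4.32% of all tested genes did so, and for none of the 45 did they all lie above, where 5.94% of all tested genes did. Of these 6, Il5ra, Il9r and Il1bos were abundant enough to be tested only because of their levels in CONV-R. Their lack of overlap is thus partly fixed by the filter. Without GF 9, 10, 11 or 12, the number lower was 8 or 9, where 8.53% to 10.2% of all tested genes were lower. Without GF 12 none was higher, where 8.12% of all tested genes were. Without CONV-R 1 or 2 the number higher was 2, where 10.1% and 11.2% of all tested genes were. By role, 8 of 31 tested receptor chains were lower and 1 higher, 3 of 9 ligands and 2 of 4 inhibitors were lower, and the last of the 14 was the non-coding gene Il1bos.

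**Figure D1:**
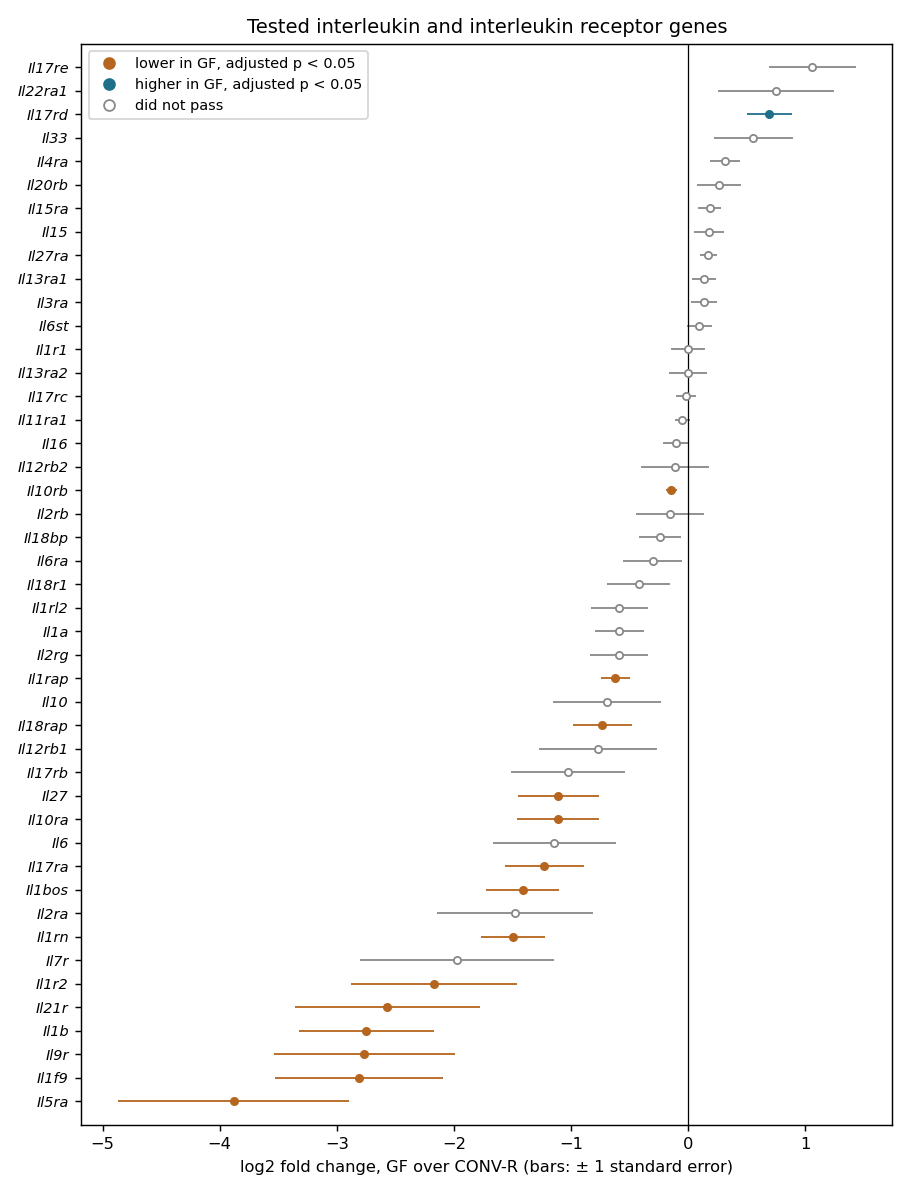
Log2 fold change (GF over CONV-R, x axis) of each of the 45 tested interleukin and receptor genes (y axis), with bars of 1 standard error. Filled orange points are the 14 genes lower in GF, the filled blue point is Il17rd, the 1 gene higher, and open points are the 30 that did not pass. Il5ra lies lowest, at -3.88, and was tested only because of its levels in CONV-R.

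Per kilobase of exon, Il6st had the highest level of these genes in both groups, with means of 274 CPM per kb in CONV-R and 293 in GF. Ranked 2nd in CONV-R was Il1b at 167 CPM per kb, which ranked 10th in GF at 24.8 CPM per kb. Il1a, at 96.0 and 63.9 CPM per kb, ranked 3rd in CONV-R and 2nd in GF, followed in both groups by Il10rb (68.3 and 61.8 CPM per kb) and Il13ra1 (52.5 and 57.6 CPM per kb). In CONV-R, Il1b and Il1a were the ligands with the highest levels per kilobase; in GF, Il16 at 25.5 CPM per kb came between Il1a and Il1b. Of the 27 genes with a mean of at least 10 CPM over all libraries, 8 were lower in GF and 1 was higher. Of the 18 tested genes under that mean, 6 were lower and 0 higher. Both are 33.3%, where 24.1% of all tested genes passed at any level.

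Among IL-1 family ligands, Il1b and Il1f9 were lower in GF, while Il1a and Il33 did not pass. Il1b, at chr2:129364569-129371164 in GRCm38.p6, encodes IL-1 beta, an inflammatory cytokine that is cleaved by caspase-1. Its levels in CONV-R 1 to 7 were 29.8, 128, 125, 81.4, 189, 407 and 628 CPM, and in GF 8 to 13 they were 43.0, 21.2, 40.6, 30.3, 33.0 and 33.9 CPM. The highest values were those of CONV-R 6 and 7; CONV-R 1 lay within the range of GF and the other 6 CONV-R libraries above all of it. Means were 227 ± 214 CPM (SD, n = 7) in CONV-R and 33.7 ± 7.77 CPM (SD, n = 6) in GF, a 6.72-fold lower level in GF (log2 fold change -2.75 ± 0.57 SE, edgeR adjusted p = 0.00534).

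Il1f9, at chr2:24186476-24193567, encodes IL-36 gamma, a cytokine of barrier tissues and myeloid cells. It stood at 0.507, 6.22, 7.88, 5.64, 11.5, 29.8 and 48.9 CPM in CONV-R 1 to 7 and at 3.08, 1.90, 2.38, 2.24, 1.70 and 1.97 CPM in GF 8 to 13. CONV-R 1 lay below all GF libraries and the other 6 CONV-R libraries above them, again highest in CONV-R 6 and 7. The level in GF was 7.01-fold lower (log2 fold change -2.81 ± 0.72 SE, edgeR adjusted p = 0.0143).

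Il1a, at chr2:129299609-129310186, encodes IL-1 alpha, which is active as a precursor and signals through the same receptor as IL-1 beta. Its levels were 74.5, 200, 200, 188, 229, 260 and 176 CPM in CONV-R 1 to 7 and 121, 124, 117, 111, 153 and 130 CPM in GF 8 to 13. CONV-R 1 was below every GF library and the other 6 CONV-R libraries were above every one. The difference did not pass over all libraries (log2 fold change -0.59 ± 0.21 SE, edgeR adjusted p = 0.0538), and it passed without CONV-R 1 (-0.74, adjusted p = 3.00e-04). Il33 encodes IL-33, a nuclear alarmin, and ranged from 12.0 to 40.6 CPM (median 18.0) in CONV-R and from 11.8 to 44.5 CPM (median 40.0) in GF. In GF, library 12 held the lowest value of all 13 and the other 5 lay between 29.2 and 44.5 CPM, overlapping CONV-R 6 and 7 (log2 fold change 0.56 ± 0.33 SE, adjusted p = 0.231). With CONV-R 1, 6 and 7 left out together, a choice made after seeing the data, Il33 was higher in GF (1.14, adjusted p = 0.0352). These were the CONV-R libraries with the highest Il33, at 25.5, 40.6 and 38.7 CPM. Leaving them out therefore favours a higher level in GF, and that fit is no separate support.

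**Figure D2:**
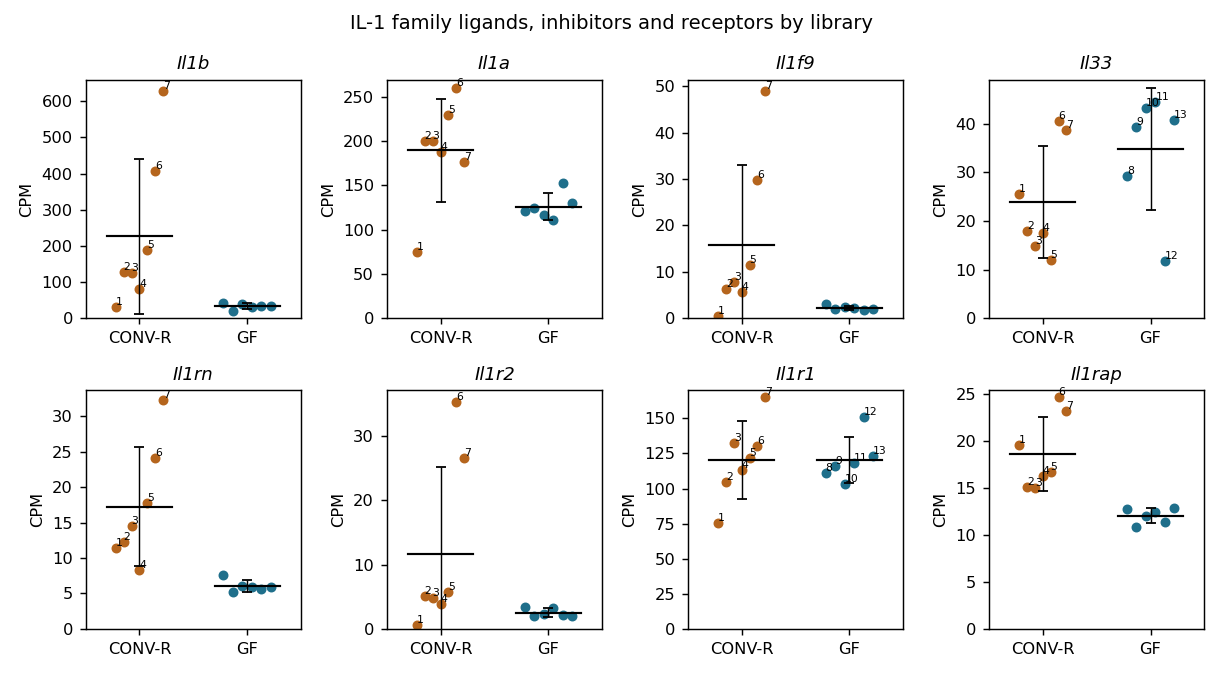
Level in CPM (y axis) of 8 IL-1 family genes in each CONV-R and GF library (x axis, points, with library numbers at all CONV-R points and where GF points are spread); horizontal lines are means and bars ± 1 SD, cut at 0 where the SD exceeds the mean. Il1b, Il1f9 and Il1r2 are highest in CONV-R 6 and 7 and low in CONV-R 1, while all GF libraries lie below all CONV-R libraries for Il1rn and Il1rap.

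Il1rn and Il1r2, which inhibit IL-1, were lower in GF. Il1rn, at chr2:24336860-24351491, encodes the IL-1 receptor antagonist, which binds the receptor without activating it. Its levels were 11.3, 12.3, 14.5, 8.24, 17.7, 24.2 and 32.3 CPM in CONV-R 1 to 7 and 7.57, 5.16, 6.09, 5.92, 5.66 and 5.85 CPM in GF 8 to 13. All GF libraries lay below all CONV-R libraries, CONV-R 1 included (log2 fold change -1.50 ± 0.27 SE, 2.83-fold lower, edgeR adjusted p = 0.00255).

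Il1r2, at chr1:40084692-40125230, encodes the decoy receptor that binds IL-1 without signalling. It was measured at 0.557, 5.04, 4.80, 3.85, 5.80, 35.3 and 26.6 CPM in CONV-R 1 to 7 and at 3.48, 2.03, 2.32, 3.23, 2.14 and 2.01 CPM in GF 8 to 13. CONV-R 6 and 7 stood far above the rest, CONV-R 1 below all GF libraries and the others just above them (log2 fold change -2.17 ± 0.71 SE, edgeR adjusted p = 0.0394). The call was lost without CONV-R 6 or 7 or without any single GF library, with log2 fold changes of -1.61 to -2.29. Il18bp, the binding protein of IL-18, did not pass, with 57.2 to 119.2 CPM (median 73.1) in CONV-R and 58.6 to 84.5 CPM (median 68.9) in GF (-0.24 ± 0.18 SE, adjusted p = 0.339).

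Of the IL-1 receptor family, 5 members were tested and 2 were lower in GF, where 12.7% of all tested genes were lower. Il1rap, at chr16:26581509-26730128, encodes the accessory chain shared by the receptors for IL-1, IL-33 and IL-36. It ranged from 14.98 to 24.7 CPM (median 16.7) in CONV-R and from 10.9 to 12.9 CPM (median 12.2) in GF, with no overlap (log2 fold change -0.62 ± 0.12 SE, edgeR adjusted p = 0.00416). Il18rap, the accessory chain of the IL-18 receptor, ranged from 11.7 to 31.6 CPM (median 14.8) and from 6.93 to 15.9 CPM (median 9.52), and GF 8, the highest GF library, overlapped CONV-R. Its difference passed narrowly (-0.73 ± 0.25 SE, adjusted p = 0.0490) and did not pass without CONV-R 2, 3, 6 or 7 or without any 1 of GF 9 to 13 (-0.51 to -0.78). Il1r1, which encodes the signalling receptor of IL-1 and is expressed by endothelial cells, was measured at 75.4 to 165 CPM (median 122) in CONV-R and 103 to 151 CPM (median 117) in GF, and the GF range lay inside that of CONV-R (log2 fold change -0.00 ± 0.15 SE, adjusted p = 0.999).

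Il1rl1, which encodes the IL-33 receptor ST2 and was named after its values were seen, was too low to be tested: 112 of its counts came from CONV-R 1 (5.67 CPM), against at most 0.544 CPM in the other CONV-R libraries. Il1bos is a non-coding gene at chr2:129369902-129375733 that overlaps the start of Il1b on the reference, and it was lower in GF with no overlap between groups, at 0.811 to 2.02 CPM (median 1.02) against 0.177 to 0.635 CPM (median 0.462) (log2 fold change -1.41 ± 0.31 SE, adjusted p = 0.00672). Il1bos had 4 to 22 counts in GF libraries and was tested only because of its levels in CONV-R. Its call and its lack of overlap are thus no separate support. The strand setting of the authors' counting is not given in the sources used here, so reads from Il1bos and Il1b cannot be told apart.

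The neutrophil and monocyte marker sum was highest in CONV-R 6 and 7, the libraries with the highest Il1b, Il1f9 and Il1r2. CONV-R 1 did not follow this order of the sums: its sum of 364 CPM was above that of CONV-R 4 and of all GF libraries, yet it held the lowest CONV-R value of all 3 genes. Csf3r, which is in that sum, was also lowest of CONV-R in CONV-R 1. It stood there at 37.4 CPM, against 80.7 to 570 CPM in the other CONV-R libraries and 23.0 to 45.8 CPM in GF. The other genes of the sum are not given here by library. With CONV-R 1, 6 and 7 left out together, a choice made after seeing the data, the log2 fold changes were -1.96 for Il1b (edgeR adjusted p = 5.38e-04), -1.81 for Il1f9 (3.43e-04), -1.12 for Il1rn (0.00169), -0.94 for Il1r2 (0.00655) and -0.39 for Il1rap (0.00339). With the log of the neutrophil and monocyte share as a covariate, Il1b was at -0.15 (adjusted p = 0.889), Il1rn at -0.23 (0.451), Il1rap at -0.19 (0.523) and Il1f9 at 0.21 (0.899). In that fit, 162 of all tested genes were higher and 112 lower, and the marker sums of the 2 groups did not overlap, so that covariate and group share much of their variation. Against the libraries of code number 10 alone, Il1b was at -1.43 (adjusted p = 0.0245) and Il1rn at -0.94 (0.00550), and against those of code number 9 at -3.61 (7.03e-05) and -2.04 (3.06e-05). Il1f9 and Il1r2 did not pass against code number 10 alone.

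Receptor chains used mainly by lymphocytes and eosinophils included some of the largest fitted differences, and CONV-R 1 carried much of their size. Il5ra, the alpha chain of the IL-5 receptor, was at 12.4 CPM in CONV-R 1, at 0.467 to 0.914 CPM in the other CONV-R libraries and at 0 to 0.277 CPM in GF. The groups did not overlap (log2 fold change -3.88 ± 0.99 SE, edgeR adjusted p = 0.0138), and without CONV-R 1 the log2 fold change was -2.08 (0.00438). Il9r, the IL-9 receptor, was at 13.3 CPM in CONV-R 1, 0.622 to 1.44 CPM in the others and 0.318 to 0.538 CPM in GF, again with no overlap (-2.76 ± 0.78 SE, adjusted p = 0.0212, and -1.24, 0.00409, without CONV-R 1). A value of 3 counts equalled 0.0866 to 0.392 CPM across the libraries, so the GF levels of Il5ra and Il9r rest on few reads. Il5ra had 0 to 9 counts in GF libraries, under the filter's minimum of 10, and was tested only because of its levels in CONV-R. Il9r had 8 to 16 counts in GF libraries, too few of which reached the filter's level. It too was tested only because of its levels in CONV-R. The calls of Il5ra and Il9r and their lack of overlap are thus partly fixed by the filter and are no separate support. Both also passed with no filter on low counts.

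Il21r, at chr7:125603252-125634397, encodes the IL-21 receptor of B, T and NK cells and lies beside Il4ra. It was at 90.3 CPM in CONV-R 1 and 4.83 to 6.15 CPM in the other CONV-R libraries, and at 2.16 to 5.05 CPM in GF, where GF 8 overlapped CONV-R. The log2 fold change was -2.57 ± 0.79 SE (edgeR adjusted p = 0.0315), -0.90 (0.00640) without CONV-R 1, and -2.50 to -2.57 without any 1 of GF 9 to 13, where it did not pass. Il2rg, the common gamma chain, did not pass, with 168 CPM in CONV-R 1, 52.4 to 94.7 CPM in the other CONV-R libraries and 46.9 to 57.8 CPM in GF (-0.59 ± 0.25 SE, adjusted p = 0.0941). Il2rb, the beta chain of the IL-2 and IL-15 receptors, was at 59.8 CPM in CONV-R 1, 14.3 to 23.2 CPM in the others and 18.4 to 37.0 CPM in GF, highest in GF 8 (-0.16 ± 0.29 SE, adjusted p = 0.724). Il7r, the IL-7 receptor of lymphocytes, named after its values were seen, stood at 50.5 CPM in CONV-R 1, 1.63 to 3.55 CPM in the others and 1.60 to 3.66 CPM in GF (-1.97 ± 0.83 SE, adjusted p = 0.0962).

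CONV-R 1 thus held the highest value of each of these 6 chains, and it is also the library with the highest B and T cell marker sums. Its sum of 6 eosinophil markers also stood apart, at 38.0 CPM against 3.04 to 9.26 CPM in the other CONV-R libraries and 1.77 to 3.32 CPM in GF, and the part of eosinophils in these values was not tested. With the B and plasma cell share as a covariate, Il5ra was at -1.35 (edgeR adjusted p = 0.0710), Il9r at -0.58 (0.168) and Il21r at -0.18 (0.507), none past the threshold, while Il1b was at -3.45 (0.00310) and Il1rn at -1.67 (0.00515). The B and plasma cell sums of the 2 groups did not overlap either. Of the 8 tested chains of the common gamma chain receptors, Il9r and Il21r were the 2 that passed, which is 25% against the 24.1% of all tested genes, and Il7r, Il2rb, Il2rg, Il2ra, Il15ra and Il4ra did not pass.

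Receptors of IL-17 moved in different directions. Il17rd, at chr14:27038964-27107286, encodes a receptor of this family also known as Sef, an inhibitor of fibroblast growth factor signalling. It ranged from 11.3 to 30.0 CPM (median 15.3) in CONV-R and from 25.9 to 33.7 CPM (median 29.4) in GF, where CONV-R 3 alone reached the GF range (log2 fold change 0.69 ± 0.20 SE, 1.62-fold higher, edgeR adjusted p = 0.0220). Without GF 12, the highest GF library, it was at 0.64 and did not pass (adjusted p = 0.0544). With a marker share as a covariate it did not pass for any of the 4 cell types fitted, at 0.46 for B and plasma cells (adjusted p = 0.153), 0.28 for neutrophils and monocytes (0.657), 0.43 for Kupffer cells (0.0574) and 0.033 for hepatocytes (0.960). With CONV-R 1, 6 and 7 left out it was at 0.44 (0.114), and against code number 10 alone at 0.48 (0.151).

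Il17ra, at chr6:120463181-120483731, encodes the chain shared by the receptors for IL-17A, IL-17F and IL-25. It was at 111, 28.0, 26.8, 25.6, 43.9, 64.8 and 79.1 CPM in CONV-R 1 to 7 and at 16.9 to 29.0 CPM (median 23.2) in GF. CONV-R 1, 5, 6 and 7 lay above all GF libraries, and CONV-R 2 to 4 within their range (log2 fold change -1.23 ± 0.34 SE, edgeR adjusted p = 0.0196). It passed with each library left out, at -0.95 to -1.35, and did not pass with CONV-R 1, 6 and 7 left out together (-0.43, 0.116). Il17rc, the partner chain for IL-17A, stood at 20.0 to 29.9 CPM (median 25.1) in CONV-R and 23.6 to 25.03 CPM (median 24.6) in GF (-0.02 ± 0.08 SE, adjusted p = 0.886). Il17re, the chain for IL-17C, named after its values were seen, had a log2 fold change of 1.06 ± 0.37 SE (adjusted p = 0.0511) at levels of 0.717 to 4.06 CPM in CONV-R and 2.605 to 4.49 CPM in GF.

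Among receptors of the IL-10 and IL-12 families, Il10ra and Il10rb were lower in GF. Il10ra, the ligand-binding chain of the receptor for the anti-inflammatory cytokine IL-10, was at 122, 31.2, 29.4, 26.2, 64.6, 85.6 and 41.3 CPM in CONV-R 1 to 7 and 16.1 to 33.0 CPM (median 27.3) in GF. CONV-R 1, 5, 6 and 7 were above all GF libraries and the others overlapped them (log2 fold change -1.11 ± 0.35 SE, edgeR adjusted p = 0.0339). The call was lost without CONV-R 1, 5 or 6 or any 1 of GF 8 to 12, at -0.81 to -1.15. Il10rb, the chain shared by the receptors for IL-10, IL-22 and lambda interferons, differed little in size, with 118.9 to 139.8 CPM (median 125) in CONV-R and 110 to 118 CPM (median 115) in GF, without overlap (-0.15 ± 0.05 SE, adjusted p = 0.0376). It did not pass without any 1 of GF 9 to 13, at -0.14 to -0.16. Kupffer cell marker sums were highest in CONV-R 6, 5 and 1, which also held the 3 highest levels of Il10ra. With the Kupffer cell share as a covariate Il10ra was at -0.29 (adjusted p = 0.289) and Il17ra at -0.56 (0.199), while Il1b (-2.29, 0.0397) and Il1rn (-1.20, 0.0176) passed. Il1f9 and Il1r2 did not pass in that fit.

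Il27, which encodes the p28 subunit of IL-27, was lower in GF, with 0.806 to 3.65 CPM (median 1.57) in CONV-R and 0.486 to 1.03 CPM (median 0.879) in GF, with overlap (log2 fold change -1.11 ± 0.34 SE, edgeR adjusted p = 0.0324). It did not pass without CONV-R 1 or 7 or without GF 9, 11 or 12, at -0.83 to -1.10. Its receptor chain Il27ra, at 60.2 to 82.6 CPM (median 62.8) in CONV-R and 70.2 to 78.1 CPM (median 74.5) in GF, did not pass over all libraries (0.17 ± 0.07 SE, adjusted p = 0.0887). CONV-R 1 held its highest value, and without it Il27ra was higher in GF, by 0.22 on the log2 scale (0.00509).

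The chains for IL-6 family cytokines and for IL-4 and IL-13 did not pass the test. Il6st, at chr13:112464070-112506860, encodes gp130, the signalling chain of IL-6, IL-11, LIF and oncostatin M. It ranged from 2342 to 3617 CPM in CONV-R and from 2794 to 3427 CPM in GF, with the GF range inside that of CONV-R (log2 fold change 0.09 ± 0.11 SE, edgeR adjusted p = 0.549). Il6ra, the IL-6 binding chain, was at 14.2 to 43.1 CPM (median 28.9) and 16.4 to 26.7 CPM (median 21.9) (-0.30 ± 0.25 SE, adjusted p = 0.391). Il11ra1, the IL-11 receptor, was at 29.7 to 35.8 CPM and 28.0 to 35.6 CPM (-0.05 ± 0.07 SE, adjusted p = 0.619); its copy Il11ra2 was at 0 in every library, and how reads that match both were counted is not given in the sources used here. Il4ra, the alpha chain for IL-4 and IL-13, was at 157 to 239 CPM (median 214) in CONV-R and 211 to 293 CPM (median 247) in GF (0.31 ± 0.13 SE, adjusted p = 0.0885). It passed with CONV-R 1, 6 and 7 left out (0.51, 0.01003), a choice made after seeing the data. These were the CONV-R libraries with the highest Il4ra, at 239, 232 and 238 CPM, so that fit favours a higher level in GF and is no separate support. Il13ra1, a chain of the IL-4 and IL-13 receptor, was at 139 to 231 CPM and 205 to 239 CPM (0.13 ± 0.10 SE, adjusted p = 0.338), and the decoy receptor Il13ra2 at 46.2 to 91.6 CPM and 49.9 to 83.3 CPM (-0.00 ± 0.16 SE, adjusted p = 0.998). Il3ra, the IL-3 receptor alpha chain, at 37.6 to 64.3 CPM and 54.6 to 64.1 CPM, and Il15ra, which presents IL-15, at 17.8 to 27.0 CPM and 20.2 to 27.6 CPM, did not pass either (0.13 ± 0.11 SE, adjusted p = 0.406, and 0.18 ± 0.10 SE, adjusted p = 0.173).

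Few ligands outside the IL-1 family were present at more than traces. Il16, a leukocyte chemoattractant cut from a PDZ-domain protein, ranged from 113 to 190 CPM (median 148) in CONV-R and from 123 to 144 CPM (median 139) in GF (log2 fold change -0.11 ± 0.11 SE, edgeR adjusted p = 0.504). Il15, which sustains NK and memory T cells, ranged from 12.4 to 20.2 CPM and from 15.7 to 18.4 CPM (0.18 ± 0.13 SE, adjusted p = 0.314). Il6, the acute-phase cytokine, was at 0.169 to 1.96 CPM and 0.177 to 0.594 CPM (-1.14 ± 0.52 SE, adjusted p = 0.122) and passed without CONV-R 3 (-1.35, 0.0472). Il10 was at 0.131 to 1.40 CPM and 0.221 to 0.673 CPM (-0.70 ± 0.46 SE, adjusted p = 0.280).

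Of the 36 genes not tested, 15 had no count in any library: Il1f5, Il1f6, Il1f10, Il3, Il5, Il9, Il17b, Il20, Il22, Il24, Il31, Il11ra2, Il20ra, Il1rapl1 and Il1rapl2. A count of 0 allows up to 3 counts, which is 0.0866 to 0.392 CPM depending on the library, for counting error only. The other 21 were counted but too low to test. Among them, the T cell growth factor Il2 had at most 3 counts in a library, Il13 had 1 count in all, in CONV-R 1, and Il7, made by stromal cells, had 1 to 9 counts in CONV-R libraries and 3 to 15 in GF libraries. Il23a and Il12b, subunits of IL-23 and IL-12, reached at most 15 and 10 counts in a library. Il12a and Il4 had most of their counts in CONV-R 1, 79 of 112 and 61 of 106, and Il17a had 1 count in all, also in CONV-R 1.

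**Figure D3:**
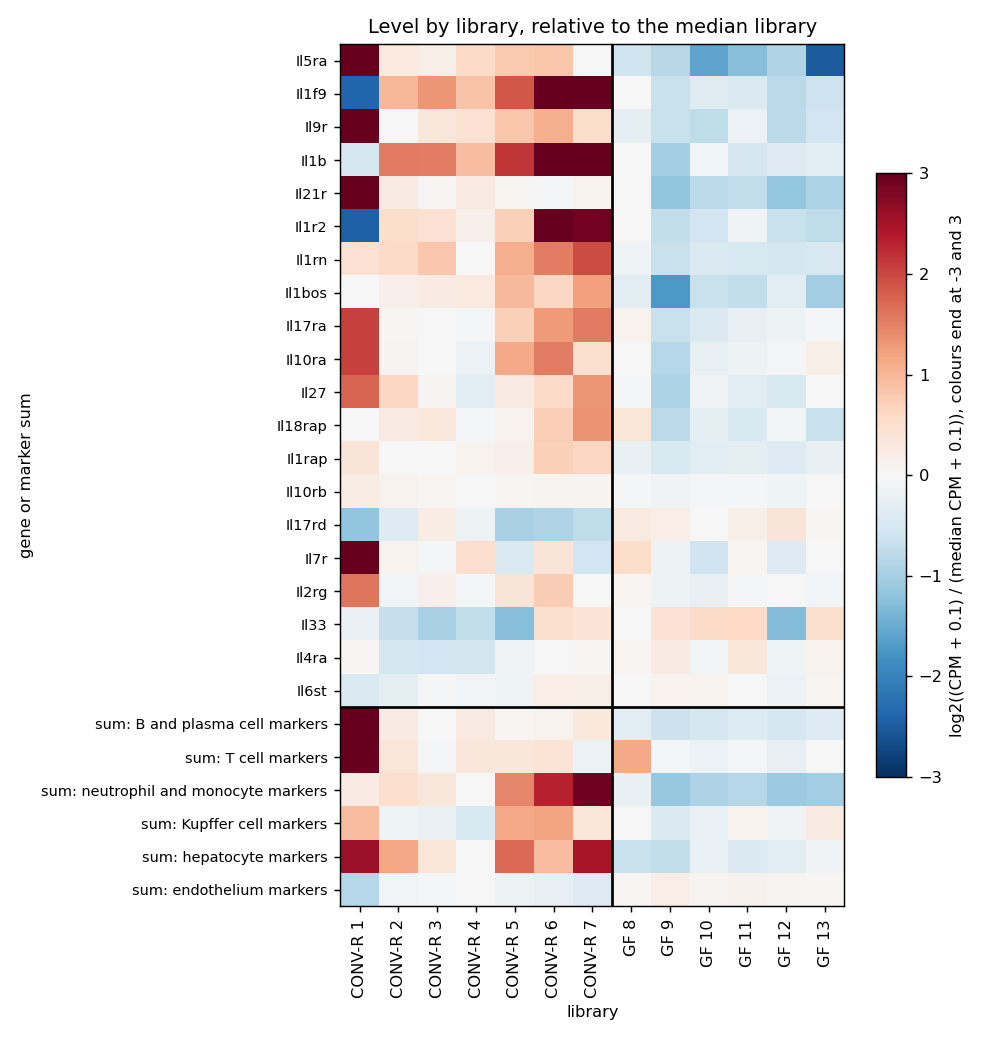
Level of 20 interleukin and receptor genes and 6 marker sums (rows) in each library (columns), as log2 of (CPM + 0.1) over the median library plus 0.1, with colours ending at -3 and 3. CONV-R 1 is high for Il5ra, Il9r, Il21r and Il7r and for the B and T cell marker sums, and CONV-R 6 and 7 are high for Il1b, Il1f9 and Il1r2 and for the neutrophil and monocyte sum.

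Partners of these cytokines outside the Il symbols were taken from a list of 65 genes (co-receptors and ligands, JAK and STAT proteins, inhibitors, adaptors and processing enzymes). Of the 58 tested, 8 were higher and 14 lower in GF, which is 37.9% against 24.1% of all tested genes (11.4% higher and 12.7% lower), and their median log2 fold change was -0.10, against -0.01 over all tested genes. The number higher was 3 to 5 without CONV-R 1, 2, 5, 6 or 7 or any single GF library, where 7.15% to 11.2% of all tested genes were higher. Scaled by library totals, 2 were higher and 21 lower, beside 970 and 2768 of all genes. Osm and Osmr, a ligand of the gp130 family and its receptor, differed in opposite directions. Osm, oncostatin M, a product of activated myeloid cells, ranged from 8.76 to 95.7 CPM (median 13.8) in CONV-R and from 2.91 to 6.37 CPM (median 3.41) in GF, without overlap (log2 fold change -3.01 ± 0.60 SE, edgeR adjusted p = 0.00418). CONV-R 6 and 7 were highest, and Osm was at -0.04 (adjusted p = 0.907) with the neutrophil and monocyte share as a covariate and at -1.99 (0.00242) with CONV-R 1, 6 and 7 left out. Osmr, which pairs with gp130, ranged from 112 to 241 CPM (median 187) in CONV-R and from 282 to 344 CPM (median 324) in GF, where every library was above every CONV-R library (0.86 ± 0.14 SE, 1.81-fold higher, adjusted p = 0.00166). It was lowest in CONV-R 1, the library with the lowest endothelial marker sum, and passed with each library left out, at 0.76 to 0.95. With the neutrophil and monocyte share as a covariate Osmr was at 1.25 (0.0127), and with the hepatocyte share it did not pass (edgeR adjusted p = 0.0854). Lifr, the LIF receptor, with 851 to 1828 CPM across CONV-R and 814 to 1216 CPM across GF, did not pass (-0.17 ± 0.16 SE, adjusted p = 0.456).

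Inhibitors of JAK and STAT signalling were measured on the same list. Ptpn2, a phosphatase of JAK1 and STAT proteins, was lower in GF, at 31.5 to 44.8 CPM against 21.5 to 27.0 CPM, without overlap (log2 fold change -0.58 ± 0.09 SE, edgeR adjusted p = 8.16e-04). Socs3, an inhibitor of gp130 signalling, ranged from 40.4 to 167 CPM (median 45.4) in CONV-R and from 25.8 to 39.8 CPM (median 34.3) in GF, also without overlap and highest in CONV-R 6 (-1.15 ± 0.33 SE, adjusted p = 0.0247). Without GF 12 it was at -1.08 and did not pass (0.0551). Socs1 and Socs2, inhibitors of cytokine receptor signalling, were lower (-1.02 ± 0.25 SE, adjusted p = 0.0126, and -0.58 ± 0.12 SE, adjusted p = 0.00459), while Socs7 and the phosphatase gene Ptpn11 were higher, by 0.31 ± 0.08 SE (0.0158) and 0.28 ± 0.07 SE (0.00880). With each of the 4 marker shares as a covariate, Socs1, Socs7 and Ptpn11 did not pass. Ptpn2 and Socs2 did not pass with the neutrophil and monocyte share or the hepatocyte share. Against code number 10 alone Socs1 and Socs7 did not pass, nor did Socs7 with library totals.

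Stat5a, a transcription factor downstream of many of these receptors, was lower in GF at 18.8 to 29.5 CPM against 11.7 to 16.4 CPM, without overlap (log2 fold change -0.58 ± 0.11 SE, edgeR adjusted p = 0.00371). Jak1, the kinase that gp130 and the common gamma chain receptors share, was higher, at 1121 to 1950 CPM against 1846 to 2146 CPM, and CONV-R 5 and 6 overlapped GF (0.36 ± 0.12 SE, adjusted p = 0.0389). Jak1 did not pass without CONV-R 2, 4 or 7 or without any single GF library (0.33 to 0.39), nor with each of the 4 marker shares as a covariate. Jak2, Jak3 and Tyk2 did not pass (-0.11 ± 0.06, -0.19 ± 0.13 and -0.11 ± 0.08 SE). Sigirr and Irak3, inhibitors of IL-1 receptor signalling, did not pass (0.11 ± 0.10 and -0.12 ± 0.09 SE), and Lif was too low to test. Ebi3, the second subunit of IL-27, was lower (-0.93 ± 0.22 SE, adjusted p = 0.0107). Of the receptors for colony-stimulating factors, Csf3r, itself on the neutrophil marker list, was at -2.55 ± 0.54 SE (0.00547), Csf2ra at -1.04 ± 0.27 SE (0.0144) and Csf2rb at -1.42 ± 0.37 SE (0.0160), where Csf2rb has a close copy that can share its reads. Against code number 10 alone, or without CONV-R 1, 6 and 7, Csf2ra, Csf2rb and Ebi3 did not pass. With each of the 4 marker shares as a covariate, Csf2ra and Csf2rb did not pass, and Ebi3 passed only with the Kupffer cell share. Csf3r did not pass with the neutrophil and monocyte share or the hepatocyte share.

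**Figure D4:**
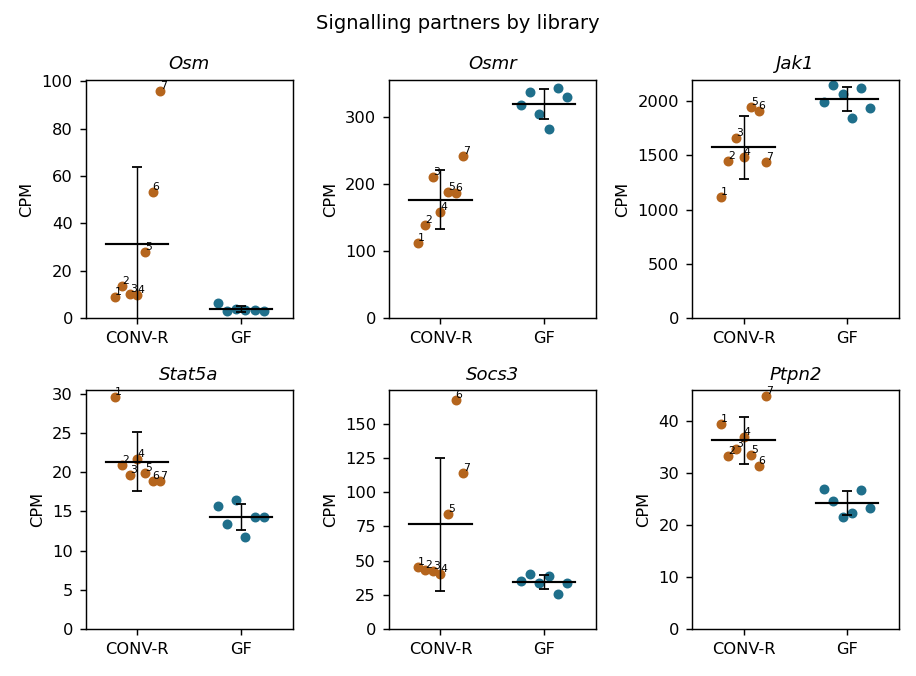
Level in CPM (y axis) of 6 signalling partners in each CONV-R and GF library (x axis, points, with library numbers at CONV-R points); horizontal lines are means and bars ± 1 SD, cut at 0 where the SD exceeds the mean. Osmr is higher in all GF libraries than in any CONV-R library, and Osm, Stat5a, Socs3 and Ptpn2 are lower in all of them.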

How the data were processed

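RNA from liver endothelial cells was sequenced in 13 libraries; per the labels' protocols, stranded mRNA libraries were read on an Illumina NovaSeq6000. The authors deposited raw counts per gene symbol in 1 table, made, per the submitters' processing notes, with FastQC 0.11.9, STAR 2.7.5a, featureCounts 2.0.1 (Subread), DESeq2 1.42.1 and the mouse build mm10. The gene annotation, strand setting and handling of reads that map to several places were not stated in the sources used here.

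Differences in the deposited counts were then tested in R 4.3.3 by edgeR 4.0.16, with filterByExpr (minimum count 10, minimum total 15), TMM, robust quasi-likelihood fits of group over the whole table, Benjamini-Hochberg adjustment over 13915 genes and a threshold of 0.05. SE is the absolute log2 fold change over the square root of F, and CPM refer to TMM-scaled libraries of 7590320 to 35478115 counts. Levels per kilobase used exon lengths of GENCODE M21, and coordinates are those of RefSeq GRCm38.p6, which is mm10. The script was also tested on simulated data.

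The genes, lists, tests and alternatives were chosen with earlier results of these data known. Named are all members past the threshold, those with a mean of at least 10 CPM, 19 fixed ligands, and of the partners the 12 with the smallest p past the threshold plus 12 fixed genes; exceptions are stated. Alternatives were DESeq2 1.42.0, limma 3.58.1 (voom with quality weights), other scalings, filters and thresholds, each CONV-R code number alone, marker shares as covariates, and leaving out each library; leaving out CONV-R 1 and 7, and 1, 6 and 7, was added after seeing the data.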

Additional observations from a re-analysis of the deposited data

Results flagged for a closer look

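In 10 of 70 groups of libraries, over the 35 tested interleukin and receptor genes that the rule named, 1 library lay further from its group than Dixon's 95% critical value allows. That value flags about 1 in 20 groups of independent, normally distributed values. These groups are untransformed CPM of the same 13 libraries, so that rate is no reference for the number of flags. CONV-R 1 was the far library in 7 of them, with the highest CPM of its group: 13.3 for Il9r, 59.8 for Il2rb, 139.8 for Il10rb, 12.4 for Il5ra, 90.3 for Il21r, 82.6 for Il27ra and 168 for Il2rg. In GF, library 8 was the highest and far from the others for Il2rb, at 37.0 CPM, and for Il21r, at 5.05 CPM; it also held the highest GF sum of T cell markers, 62.6 CPM, and of NK cell and innate lymphoid cell markers, 192 CPM against 64.1 to 96.3 CPM in the other GF libraries. GF 9 was the highest and far from the others for Il13ra1, at 239 CPM. The part of other cell types in these values was not tested beyond the fits with marker shares given above.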

How the results depend on the processing

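Counts of interleukin and receptor genes are given here as higher then lower in GF, followed by the same for the partners. Percentages in brackets are the same for all tested genes. The values reported are 1 and 14, then 8 and 14 (11.4% and 12.7%). DESeq2 gave 2 and 15, then 10 and 18 (13.6% and 15.9%). Limma-voom gave 5 and 11, then 9 and 10 (13.8% and 11.9%). Library totals gave 1 and 15, then 2 and 21 (6.97% and 19.9%). A threshold of 0.01 gave 0 and 4, then 2 and 5 (4.52% and 4.16%), and 4 members were higher at an unadjusted edgeR p under 0.05. Code number 10 alone gave 1 and 8, then 3 and 5 (6.89% and 7.05%), and number 9 alone 3 and 17, then 10 and 19 (16.2% and 17.9%). With the B and plasma cell share as a covariate, the counts were 1 and 7, then 1 and 8 (6.40% and 6.97%). They were 1 and 1, then 1 and 1 (1.16% and 0.805%) for neutrophils and monocytes, and 1 and 4, then 1 and 7 (5.66% and 4.80%) for Kupffer cells. The 1 member higher was not Il17rd in any of these 3 fits but Il27ra, Il15 and Il4ra, in the same order, and the 1 member lower with the neutrophil and monocyte share was Il16, which did not pass without it. For hepatocytes edgeR gave 0 and 0, then 0 and 0, where 3 and 4, then 2 and 4 had an unadjusted p under 0.05, and 272 of all genes were higher and 222 lower. Without CONV-R 1 and 7 the counts were 2 and 10, then 5 and 9 (10.2% and 11.8%), and without CONV-R 1, 6 and 7 they were 4 and 10, then 5 and 7 (9.32% and 10.4%). Leaving out each library gave 0 to 2 and 8 to 14, then 3 to 9 and 10 to 14 (7.15% to 12.8% and 8.53% to 14.2%). The 0 came without GF 12, with 4 members higher at an unadjusted p under 0.05. Size factors and the other filters on low counts stayed within 1.5 times each count.

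The log2 fold change changed sign with the neutrophil and monocyte share for Il1r2 (1.0), Il18rap (0.23), Il1f9 (0.21) and Socs3 (0.43), and with the hepatocyte share for Il9r (0.031), Il17ra (0.15), Il21r (0.27), Il27 (0.29) and Il10ra (0.023). The cause was not tested. Of 1530 refits over 55 named genes, 1223 kept their direction and side of the threshold. Of the 15 interleukin and receptor genes past the threshold, 8 passed with each single library left out (Il1b, Il1bos, Il1f9, Il1rap, Il1rn, Il5ra, Il9r and Il17ra), and 7 passed against each code number alone (Il1b, Il1bos, Il1rap, Il1rn, Il5ra, Il9r and Il21r). The same shares over all genes are not given here, so these counts are no result about the interleukin genes. Both code number fits used the same GF libraries and are not independent. Il5ra, Il9r and Il1bos were tested over all libraries only because of their levels in CONV-R. No paired analysis was possible because the groups share no replicate numbers.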
